A study of Mus musculus with 9 samples.

Results

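Hox genes encode homeodomain transcription factors that give cells their position along the body and limb axes, and the mouse carries them in 4 clusters, A to D. Within a cluster the genes are numbered from 1 at the 3′ end to 13 at the 5′ end, and low numbers are known for anterior and high numbers for posterior or distal expression. Fibroblasts are known to keep much of the Hox pattern of their site of origin in culture, so that a fibroblast culture carries a record of the body regions it was made from. All probe-sets whose mouse symbol is a Hox gene of cluster A, B, C or D were taken, without antisense and opposite-strand genes, which gave 48 probe-sets of 33 genes out of 45101 probe-sets of 18194 named genes on the array.

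Expression was measured in primary mouse embryonic fibroblasts (MEFs) from embryos of 13.5 days, of mixed C57BL/6J x 129Sv/J background, grown without treatment in DMEM with 10% serum. The labels describe a 3T3 protocol, in which cells are replated at a fixed density at fixed intervals, without saying whether the cultures used for the arrays were passaged on it. The study compared 3 groups of 3 cultures each: Tgif1 -/- cells at passage 3 (null), wild type cells at passage 3 (P3) and wild type cells at passage 5 (P5). Tgif1 is a homeodomain repressor that limits TGFβ and retinoic acid responses. No null arrays at passage 5 were analysed here, so genotype was compared at passage 3 only, and the null cells carried the deletion throughout development of the embryo. Each array measured the RNA of a whole culture, so that more cells from one body region and more RNA per cell cannot be told apart. Neither the sample titles nor the study says whether the cultures of a group came from different embryos. Nor is it said whether null and wild type embryos were littermates. A difference between groups thus cannot be told apart from one between embryos or cell preparations. Values are log2 signals, on which a step of 1 is a 2-fold difference, and the signal of one probe-set cannot be set against that of another.

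The Tgif1 probe-set read 2.48, 3.21 and 2.50 on the null arrays, 9.82, 9.95 and 9.72 at P3 and 10.06, 10.07 and 10.18 at P5, so every array bore out its genotype label. Of 12 fibroblast markers, 11 were above a log2 signal of 4 on all arrays, the level taken here as background, while all 4 liver markers lay near the lowest value of the data, 2.23. Markers of other cell types did differ between the groups. The mean log2 signal of 7 skeletal muscle markers ran from 3.56 to 3.74 in the null, from 3.13 to 3.18 at P3 and was 2.99 on every P5 array, with Myog and Des as the 2 members that rose in the null and with Myod1, Myf5 and Pax7 near the lowest value. That of 4 cartilage markers ran from 5.81 to 6.28 in the null, from 5.78 to 6.06 at P3 and from 4.96 to 5.25 at P5. At P5 Col2a1 and Acan of that list fell. Of 8 epithelial and mesothelial markers, Krt18, an epithelial keratin, fell by 2.66 at P5. The other 7 did not pass, and the median difference of the list was -0.03. The mean of 6 macrophage markers ran from 3.78 to 4.05 in the null, from 3.40 to 3.53 at P3 and from 3.50 to 3.58 at P5, with none of them passing against P3. That of the fibroblast markers ran from 11.21 to 11.32, from 11.27 to 11.43 and from 11.60 to 11.68, and at P5 3 of the 12 rose (Col1a2, Lum and Fn1) and Twist2 fell, where of all probe-sets with a mean log2 signal above 4, 9.75% rose and 10.4% fell. In the null Dcn, a matrix proteoglycan, fell by 0.73 (limma adjusted p = 0.0317) and no other fibroblast marker passed. The part of these differences in the Hox results was not tested.

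The promoters of Hoxa5, Hoxa9 and Hoxb4 are printed here because the results return to these genes: Hoxa5 passed the test in both comparisons with P3, Hoxa9, a close neighbour in the same cluster, fell at P5 where Hoxa5 rose, and Hoxb4 has probe-sets that both passed between null and P5. Each sequence is the 250 bases before the RefSeq start of the gene in build GRCm38.p6, written 5′ to 3′ on the gene's strand. Capitals mark a CAGAC, the Smad element, and only Hoxb4 holds one.
Hoxa5, chr6:52204588-52204837, minus strand: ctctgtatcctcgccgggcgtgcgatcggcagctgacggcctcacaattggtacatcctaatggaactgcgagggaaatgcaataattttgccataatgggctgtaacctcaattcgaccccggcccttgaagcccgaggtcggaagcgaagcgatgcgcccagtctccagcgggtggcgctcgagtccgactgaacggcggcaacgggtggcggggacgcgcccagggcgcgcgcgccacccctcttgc
Hoxa9, chr6:52227371-52227620, minus strand: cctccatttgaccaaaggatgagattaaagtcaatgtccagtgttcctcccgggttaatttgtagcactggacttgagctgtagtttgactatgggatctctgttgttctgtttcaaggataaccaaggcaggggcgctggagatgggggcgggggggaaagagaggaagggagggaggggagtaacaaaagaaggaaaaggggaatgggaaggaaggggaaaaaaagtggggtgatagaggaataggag
Hoxb4, chr11:96318017-96318266, plus strand: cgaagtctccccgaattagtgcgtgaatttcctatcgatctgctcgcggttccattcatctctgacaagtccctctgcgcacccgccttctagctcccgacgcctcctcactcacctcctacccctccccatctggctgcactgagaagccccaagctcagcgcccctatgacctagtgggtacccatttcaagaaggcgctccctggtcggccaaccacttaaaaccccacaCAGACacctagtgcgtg

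An entry was found for 19 of the 33 Hox genes, with 21 promoters, and for 5 of the 9 genes that passed a test. Both strands of the 250 bases were searched for 3 motifs. The Tgif site CTGTCA was present in 2 of the 21 Hox promoters and in none of the 5 of genes that passed, against 15.9% of 32851 promoters of the genome. The Smad element CAGAC was present in 6 of the 21 and 1 of the 5, against 42.2% of all promoters, and the homeodomain core TAATTA in 2 of the 21 and none of the 5, against 4.84%. On opposite strands a Tgif site and a Smad element can share letters. A match in these windows is a description only, and its absence says only that the letters are not there.

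Of the 48 Hox probe-sets, 28, from 22 genes, were above a log2 signal of 4 on all 9 arrays. By group the numbers were 30 in the null, 29 at P3 and 30 at P5, each from 22 genes, so the set of Hox genes above background was close to the same size in the 3 groups. In cluster A, Hoxa3, Hoxa5, Hoxa7, Hoxa9, Hoxa10 and Hoxa11 were above background on every array by at least 1 probe-set, and Hoxa2, Hoxa4 and Hoxa13 were not. In cluster B the genes above background were Hoxb2, Hoxb3, Hoxb4, Hoxb5, Hoxb6 and Hoxb9, with Hoxb1 and Hoxb13 below. The Hoxb7 probe-set was at the lowest value, but a probe-set that Hoxb7 shares with Hoxb8 read from 7.02 to 7.84, so Hoxb7 cannot be placed. In cluster C all but Hoxc13 of the 7 measured genes were above, and in cluster D Hoxd8, Hoxd9, Hoxd10 and Hoxd13 were above, with Hoxd1, Hoxd3 and Hoxd12 below and Hoxd11 above on 3 of the 9 arrays. Genes from the middle of the clusters were thus measured in all 4, and the 3′ ends (Hoxb1, Hoxd1) and the 5′ ends of clusters A, B and C (Hoxa13, Hoxb13, Hoxc13) were not.

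At the 5′ end of cluster D, Hoxd11 read between 3.82 and 4.49 and Hoxd12 between 2.25 and 2.40, while a Hoxd13 probe-set read 8.23 or more on every array. A second Hoxd13 probe-set did not follow it, with values from 2.45 to 3.00, so the 2 probe-sets of this gene do not give the same picture, and no order of levels along the cluster can be read from these probe-sets. Hoxa4, outside the 28, read 4.57, 3.49 and 3.63 in the null and from 2.92 to 3.25 on all wild type arrays, with no overlap of the groups, but the difference of 0.76 ± 0.29 (SE) from P3 did not pass the test (limma adjusted p = 0.418).

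**Figure D1:**
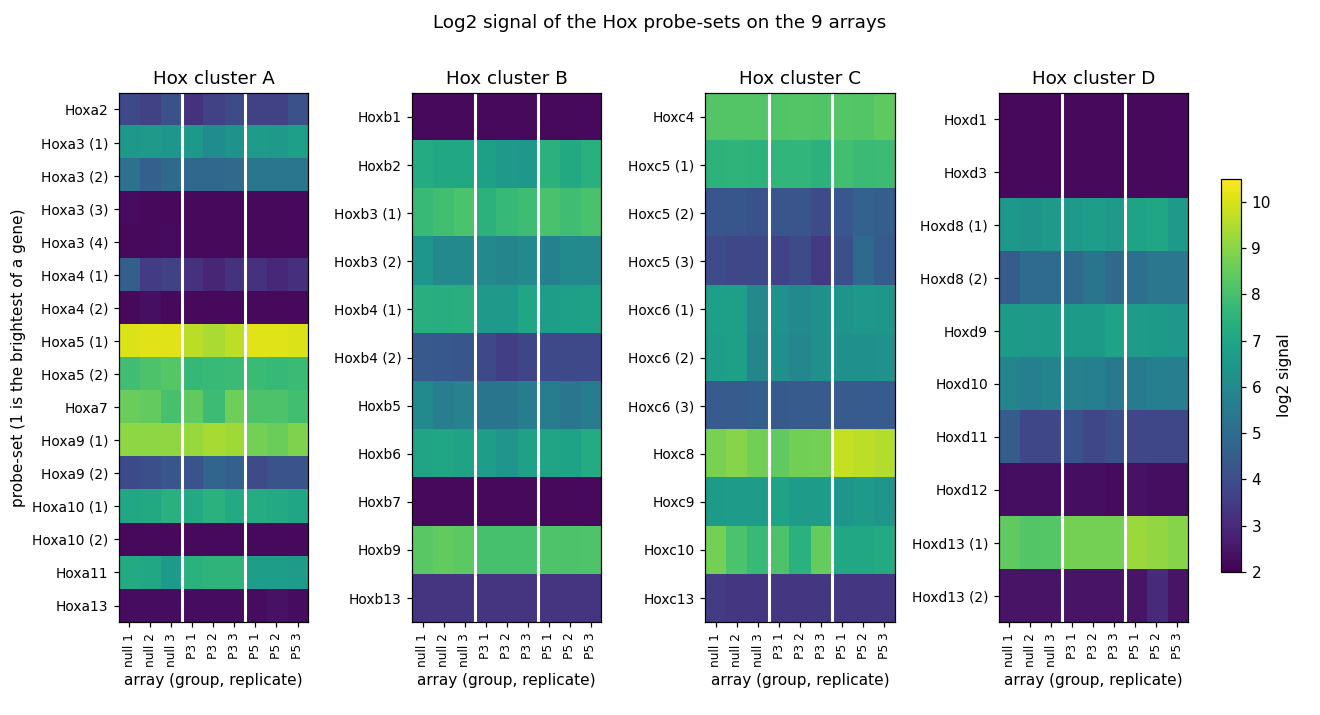
Log2 signal (colour) of the 48 Hox probe-sets, in rows by cluster and paralogue number, on the 9 arrays, in columns by group. Rows that are dark on all 9 arrays, such as Hoxb1, Hoxb7, Hoxd1 and Hoxd3, are probe-sets at background. Colours are to be compared along a row, not between rows.

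The first comparison set the Hox genes of wild type cells at P5 against those at P3. From P3 to P5, 5 Hox probe-sets rose and 2 fell: Hoxc8, Hoxb2, Hoxa5, Hoxd13 and Hoxc5 rose, and Hoxa9 and Hoxa11 fell. They were 14.6% of the 48, where of all probe-sets 4.29% rose and 4.33% fell (8.62% in either direction). All 7 were among the 31 Hox probe-sets with a mean log2 signal above 4 (22.6%), where of all probe-sets above that mean 9.75% rose and 10.4% fell (20.2%). The median difference was 0.04 over the 48 and 0 over all probe-sets. An unadjusted p under 0.05 was found for 16 of the 48, but the share of all probe-sets with such a p was not counted. A probe-set passed at an adjusted p under 0.05 of limma's moderated test, adjusted over the whole array. The number passing was 1 (Hoxc8) with limma's trended, robust prior. It was also 1 with the thresholds of the study, a p under 0.0001 and a difference of at least 0.5. That held on limma's pair-wise p and on its F p over the 3 groups. Without P5 replicate 1 the number was 4. Of all probe-sets, 3889 passed as reported, 1297 with that prior and 2245 without P5 replicate 1. The study's thresholds were met by 784 on the pair-wise p and 674 on the F p.

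Hoxc8, a gene of thoracic segments, had the largest difference of the 48 between P5 and P3 in size. It read 8.44, 8.68 and 8.71 at P3, 9.75, 9.66 and 9.54 at P5 and 8.78, 8.95 and 8.70 in the null. The P5 arrays stood clear above both passage 3 groups, which overlapped. The rise was 1.04 ± 0.10 (SE), or 2.05-fold (limma adjusted p = 0.00276). The null differed from P3 by 0.20, with a 95% interval from -0.05 to 0.45.

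Hoxb2, which acts in the hindbrain and anterior trunk, read 6.83, 6.58 and 6.54 at P3 and 7.46, 7.17 and 7.39 at P5, a rise of 0.69 ± 0.11 (SE, limma adjusted p = 0.0149). Its null arrays, at 7.25, 7.06 and 7.07, also lay above all P3 arrays, but that difference of 0.47 did not pass (limma adjusted p = 0.131). The P5 and null values overlapped, with a difference of -0.21 between them (95% interval from -0.48 to 0.05).

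Of the 3 probe-sets of Hoxc5, a gene of the cervical and upper thoracic region, the brightest read 7.59, 7.59 and 7.47 at P3, 7.92, 7.80 and 7.83 at P5 and 7.49, 7.54 and 7.50 in the null. Only the P5 arrays stood apart, by 0.30 ± 0.05 (SE, limma adjusted p = 0.0111). The other 2 probe-sets of the gene were higher at P5 as well, by 0.34 and 0.78, without passing (limma adjusted p = 0.203 and 0.0912).

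Hoxa9 and Hoxa11 belong to the 5′ part of cluster A, with known roles in the lumbosacral trunk and the limb. Hoxa9 read 9.19, 9.38 and 9.29 at P3 and 8.73, 8.59 and 8.85 at P5, so that each P5 array was below each P3 array, and it fell by 0.57 ± 0.07 (SE, limma adjusted p = 0.00706). Its null arrays, at 9.07, 9.05 and 9.10, lay between the wild type groups. Hoxa11 read 7.43, 7.51 and 7.52 at P3 and 6.75, 6.75 and 6.71 at P5, and fell by 0.75 ± 0.14 (SE, limma adjusted p = 0.0216), a call lost in 8 of 16 alternatives. In the null it read 7.18, 7.09 and 6.64, which is below every P3 array but spread over more than the other groups, and the difference of -0.52 did not pass (limma adjusted p = 0.175). A second Hoxa9 probe-set, near background at 3.89 to 4.79, was lower at P5 by 0.41 without passing.

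Hoxd13, the last gene of cluster D, known for its role in digits and the genital tubercle, ran against Hoxa9 and Hoxa11. It read 8.73 on each of the 3 P3 arrays, 9.22, 9.14 and 8.95 at P5 and 8.43, 8.23 and 8.25 in the null. The 3 groups did not overlap, and the order was null, P3, P5. The rise at P5 was 0.37 ± 0.08 (SE, limma adjusted p = 0.0426), and the null was lower than P3 by an amount that did not pass (-0.42 ± 0.08, limma adjusted p = 0.0736). The 3 P3 values were identical to 3 decimals. Such repeats occur throughout the file: of 18225 probe-sets with a mean above 4, 4.15% had a whole group at 1 value, as did 3 of the 31 Hox probe-sets (of Hoxd13, Hoxc4 and Hoxc6), and no spread between cultures can be read from such a group. The call at P5 was lost in 11 of 16 alternatives.

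Hoxc10, which marks the lumbar level and hind limb, had a difference of similar size to Hoxa11 that did not pass. It read 8.12, 7.42 and 8.48 at P3, 7.07, 7.07 and 7.20 at P5 and 8.72, 8.11 and 7.72 in the null. The passage 3 arrays of both genotypes varied by about 1 on the log2 scale, and all of them were above the P5 arrays. The difference of P5 from P3 was -0.89 ± 0.34 (SE, limma adjusted p = 0.22).

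**Figure D2:**
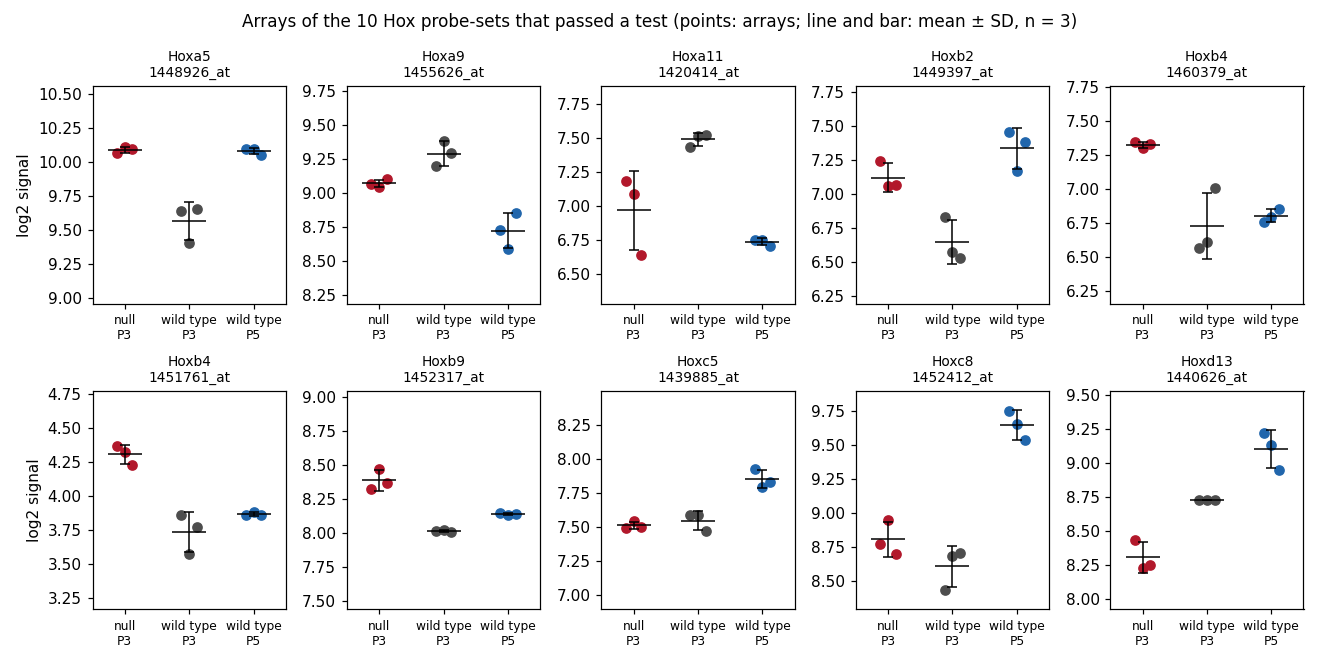
Log2 signal (vertical axis, its range set for each panel) of the 10 Hox probe-sets that passed a test in at least 1 of the 3 comparisons, with each array as a point and the mean ± SD of 3 arrays as lines. For Hoxa5 the P3 arrays alone stood apart, for Hoxc8 and Hoxc5 the P5 arrays alone, for Hoxb4 and Hoxb9 the null arrays were above both wild type groups, and for Hoxd13 the 3 groups followed each other without overlap.

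The second comparison set null against wild type cells at passage 3. Against wild type P3, 3 of the 48 Hox probe-sets (6.25%) rose in the null, of Hoxa5, Hoxb4 and Hoxb9, and none fell. That of Hoxb4 was the dimmer of its 2, and all its wild type values were under 4. Of all probe-sets 0.898% passed as higher and 0.692% as lower (1.59% in either direction). An unadjusted p under 0.05 was found for 12 Hox probe-sets, again without a count over all probe-sets. Among probe-sets with a mean above 4, 2 of 31 Hox probe-sets passed (6.45%), both higher, against 2.09% of all as higher and 1.6% as lower (3.68%). The median difference was 0.04 over the 48 and 0 over all probe-sets. None of the 3 calls remained when the fit held only the 6 arrays compared, or with limma's trended, robust prior. Nor did any of them meet the thresholds of the study on the fit made here. Of all probe-sets, 717 passed as reported, 123 in the fit of 6 arrays and 59 with that prior. The study's thresholds were met by 178 on the pair-wise p and 256 on the F p. Leaving out any 1 of the P5 arrays, or null replicate 2, left 1 call. Fitting only the probe-sets with a mean above 4 gave 7, of which 5 were higher and 2 lower. Over all probe-sets fitted, the calls were 353, 363 and 431 without a P5 array, 325 without null replicate 2 and 1529 with that filter. The sizes of the differences of Hoxa5, Hoxb4 and Hoxb9 changed less, but many alternatives leave the group means as they were. Each kept its sign, which most alternatives could not turn, as the null and P3 arrays of these probe-sets did not overlap.

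Hoxa5, a gene of the cervical and upper thoracic level with a known role in the lung and shoulder girdle, read 10.06, 10.11 and 10.09 in the null, 9.64, 9.41 and 9.65 at P3 and 10.09, 10.10 and 10.05 at P5. The null and P5 arrays covered the same narrow range and the P3 arrays lay below it. The rise was 0.52 ± 0.07 (SE) in the null (limma adjusted p = 0.0218) and 0.52 ± 0.07 at P5 (limma adjusted p = 0.00637), and both comparisons rest on the same P3 arrays. The call in the null was lost in 10 of 16 alternatives. That at P5 was lost with the trended, robust prior and with the thresholds of the study. Null and P5 differed by 0.01, with a 95% interval from -0.15 to 0.16. The second Hoxa5 probe-set read 7.91, 8.12 and 8.26 in the null, 7.65, 7.73 and 7.80 at P3 and 7.80, 7.69 and 7.79 at P5. Here the null arrays were the high ones and the wild type groups overlapped, with a difference from P3 of 0.37 in the null (limma adjusted p = 0.15) and of 0.04 at P5 (95% interval from -0.19 to 0.26). Both probe-sets were thus higher in the null than at P3, by differences of which 1 passed, and at P5 the brighter one alone passed.

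Hoxb4, a cervical gene also known for its role in blood stem cells, was measured by 2 probe-sets. The dimmer read 4.37, 4.33 and 4.23 in the null, 3.86, 3.57 and 3.77 at P3 and 3.86, 3.88 and 3.86 at P5, and rose by 0.57 ± 0.08 (SE, limma adjusted p = 0.0249). Its wild type values lay under the level taken as background, and the call was lost in 11 of 15 alternatives. The brighter read 7.35, 7.30 and 7.33 in the null, 6.57, 6.61 and 7.01 at P3 and 6.76, 6.80 and 6.85 at P5, with a difference of 0.60 ± 0.11 from P3 that did not pass (limma adjusted p = 0.0713). In both probe-sets every null array was above every wild type array, and P5 differed from P3 by 0.13 and 0.08.

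Hoxb9, a gene of the thoracic level, read 8.32, 8.47 and 8.37 in the null, 8.01, 8.03 and 8.01 at P3 and 8.15, 8.14 and 8.14 at P5. The 3 groups did not overlap, with P5 between the others. It rose by 0.37 ± 0.04 (SE) in the null (limma adjusted p = 0.0107), while P5 was 0.12 above P3 without passing (limma adjusted p = 0.099). The arrays of each wild type group differed by less than 0.1.

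The other genes of cluster B lay the same way in the null without passing. Hoxb5, of the neck and upper trunk, read 6.06, 5.63 and 5.76 in the null and 5.32, 5.31 and 5.56 at P3, a difference of 0.42 (limma adjusted p = 0.289). Hoxb6 read 6.98, 7.02 and 6.88 in the null and 6.72, 6.44 and 6.87 at P3, a difference of 0.28. The null arrays of Hoxb5 and Hoxb6 did not overlap with P3, while those of both Hoxb3 probe-sets did. The share of all probe-sets without such an overlap was not counted. All 7 probe-sets of cluster B with a mean above 4 were higher in the null than at P3, by 0.20 to 0.60, and 6 of the 7 were higher at P5, with Hoxb3's dimmer probe-set 0.04 lower.

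The third comparison set null cells at passage 3 against wild type cells at passage 5, and shares its arrays with the other comparisons. In the null 4 Hox probe-sets were higher than at P5 and 3 lower (14.6% of the 48), against 3.58% and 3.65% of all probe-sets (7.22% in either direction), and 6 of the 31 with a mean above 4 passed (19.4%), 3 each way, against 8.5% of all as higher and 8.1% as lower (16.6%). The higher ones were both Hoxb4 probe-sets (0.52 and 0.44, limma adjusted p = 0.0465 and 0.0209), Hoxa9 (0.35, limma adjusted p = 0.0422) and Hoxb9 (0.25, limma adjusted p = 0.0113). The calls of the brighter Hoxb4 probe-set and of Hoxa9 were each lost in 10 of 16 alternatives (limma adjusted p up to 0.171 and 0.222), that of the dimmer Hoxb4 probe-set in 7 of 15 (up to 0.172) and that of Hoxb9 in 3 of 16 (up to 0.357). The lower ones were Hoxc8 (-0.84, limma adjusted p = 0.00635), Hoxd13 (-0.80, limma adjusted p = 0.00349) and Hoxc5 (-0.34, limma adjusted p = 0.00862). Hoxa5, Hoxa11 and Hoxb2 did not pass here, with differences of 0.01, 0.23 and -0.21. The median difference was 0.0049 over the 48 and 0 over all probe-sets. An unadjusted p under 0.05 was found for 15 of the 48, again without a count over all probe-sets. The probe-sets that passed came from 6 genes. The number passing was 2 with limma's trended, robust prior. With the thresholds of the study it was 1, Hoxd13 by the pair-wise p and Hoxc8 by the F p. When only probe-sets with a mean above 4 were fitted it was 10. It was 3 without P5 replicate 2, and 4 without P5 replicate 1 or null replicate 2. Of all probe-sets, 3258 passed as reported, 1071 with that prior, 722 and 659 with those thresholds, and 5114 with that filter. Without P5 replicate 2, P5 replicate 1 or null replicate 2 they were 1753, 1811 and 2075.

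The other genes at the ends of the clusters did not pass in any comparison. Hoxc4, the lowest-numbered gene of cluster C above background, read 8.23 on all 3 null arrays, 8.19, 8.23 and 8.19 at P3 and 8.27, 8.23 and 8.38 at P5, with a difference at P5 of 0.09 (95% interval from -0.0043 to 0.18). Hoxa3, the lowest-numbered gene of cluster A above background, read 6.53, 6.58 and 6.48 in the null, 6.53, 6.12 and 6.33 at P3 and 6.68, 6.59 and 6.79 at P5. Its P5 arrays were above all P3 arrays, by 0.36 without passing (limma adjusted p = 0.115), and its second probe-set above background was higher at P5 by 0.46 (limma adjusted p = 0.116). Hoxd8, the lowest-numbered gene of cluster D above background, read 6.53, 6.40 and 6.60 in the null, 6.61, 6.74 and 6.57 at P3 and 6.94, 7.01 and 6.61 at P5. Both other groups overlapped with P3, with differences of -0.13 in the null and 0.22 at P5 that did not pass. The null arrays lay below all P5 arrays in both Hoxd8 probe-sets, by differences of -0.35 and -0.49 that did not pass (limma adjusted p = 0.169 and 0.201). Hoxa10, Hoxd9 and Hoxd10, all of the 5′ part of their clusters, differed from P3 by at most 0.19 in size in either comparison without passing. Nor did Hoxa7, Hoxb3, Hoxc6 and Hoxc9, with differences from P3 between -0.09 and 0.31 in the null and between -0.25 and 0.32 at P5.

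**Figure D3:**
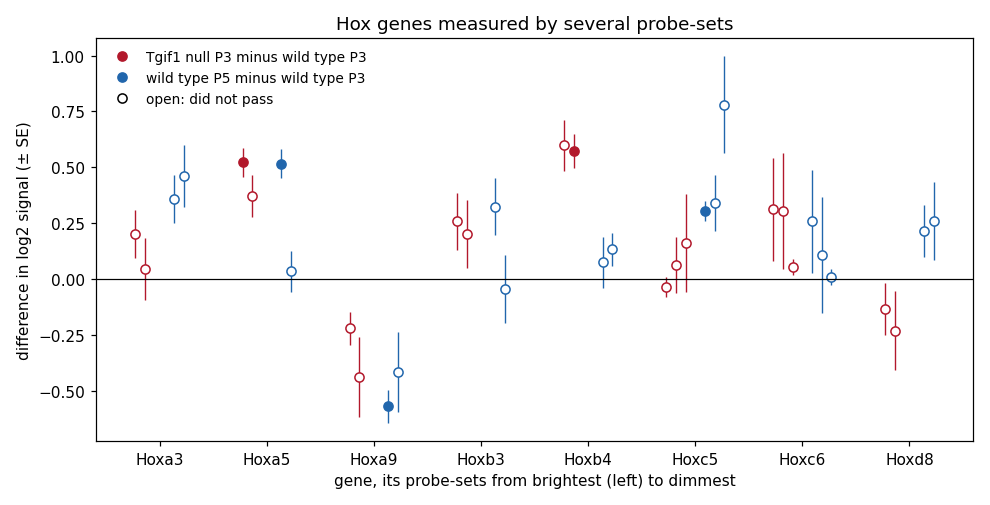
Difference in log2 signal from wild type P3 (± SE, vertical axis) of the null (red) and of P5 (blue) for the probe-sets of 8 Hox genes measured by several probe-sets. They are ordered from brightest to dimmest and filled where the test was passed. Probe-sets with a mean of 4 or less are left out, apart from the dimmer Hoxb4 one. So are Hoxa4, Hoxa10 and Hoxd13, of which at most 1 probe-set remained. The 2 Hoxb4 probe-sets gave differences of 0.60 and 0.57 in the null, and the 2 Hoxa5 probe-sets 0.52 and 0.04 at P5.

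Set out along the clusters, the differences at P5 were mostly positive at low and mostly negative at high paralogue numbers. The split into paralogues 1 to 8 and 9 to 13 was chosen after the values were seen, and is given with no test. Of 21 probe-sets of paralogues 1 to 8 with a mean above 4, from 13 genes, 19 were higher and 2 lower at P5 than at P3, 4 rose, and the median difference was 0.26. Of 10 probe-sets of paralogues 9 to 13, from 9 genes, 2 were higher and 8 lower, Hoxd13 rose, Hoxa9 and Hoxa11 fell, and the median was -0.19. Over all probe-sets with a mean above 4 the median was -0.01. The share of them that were higher or lower than at P3, at P5 or in the null, was not counted. The 2 probe-sets of the upper paralogues that were higher were those of Hoxd13 and Hoxb9, and the 2 of the lower ones that were lower were those of Hoxa7 (-0.25) and Hoxb3 (-0.04).

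By cluster, all 8 probe-sets of paralogues 1 to 8 in cluster C were higher at P5, from 0.01 to 1.04, and both of paralogues 9 to 13 (Hoxc9 and Hoxc10) were lower. In cluster A, 4 of 5 probe-sets of paralogues 1 to 8 were higher at P5 and all 4 of paralogues 9 to 13 lower, from -0.75 to -0.12. Cluster D had its 2 Hoxd8 probe-sets higher at P5, Hoxd9 and Hoxd10 at -0.12 and -0.0035, and Hoxd13 higher.

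The null had its own values for the same sets against the same P3 arrays. Of the 21 probe-sets of paralogues 1 to 8, 18 were higher and 3 lower, 1 rose, and the median was 0.20. Of the 10 of paralogues 9 to 13, 3 were higher and 7 lower, 1 rose, and the median was -0.10. In cluster D both Hoxd8 probe-sets were lower in the null, by 0.13 and 0.23.

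Averaged within each array and set against the P3 mean, the paralogues 1 to 8 were at 0.26, 0.30 and 0.30 on the P5 arrays, 0.25, 0.21 and 0.13 on the null arrays and 0.01, -0.05 and 0.04 on the P3 arrays. The paralogues 9 to 13 were at -0.26, -0.24 and -0.28 on the P5 arrays, -0.06, -0.13 and -0.15 on the null arrays and -0.03, -0.01 and 0.05 on the P3 arrays. For both sets the P5 and the null arrays lay outside the range of the P3 arrays, and in both sets every null array lay between the P3 and the P5 arrays. As the split was chosen with these values seen, the averages restate it and do not test it. Members of a cluster are neighbours in the genome and share a culture, so they are not independent of each other.

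**Figure D4:**
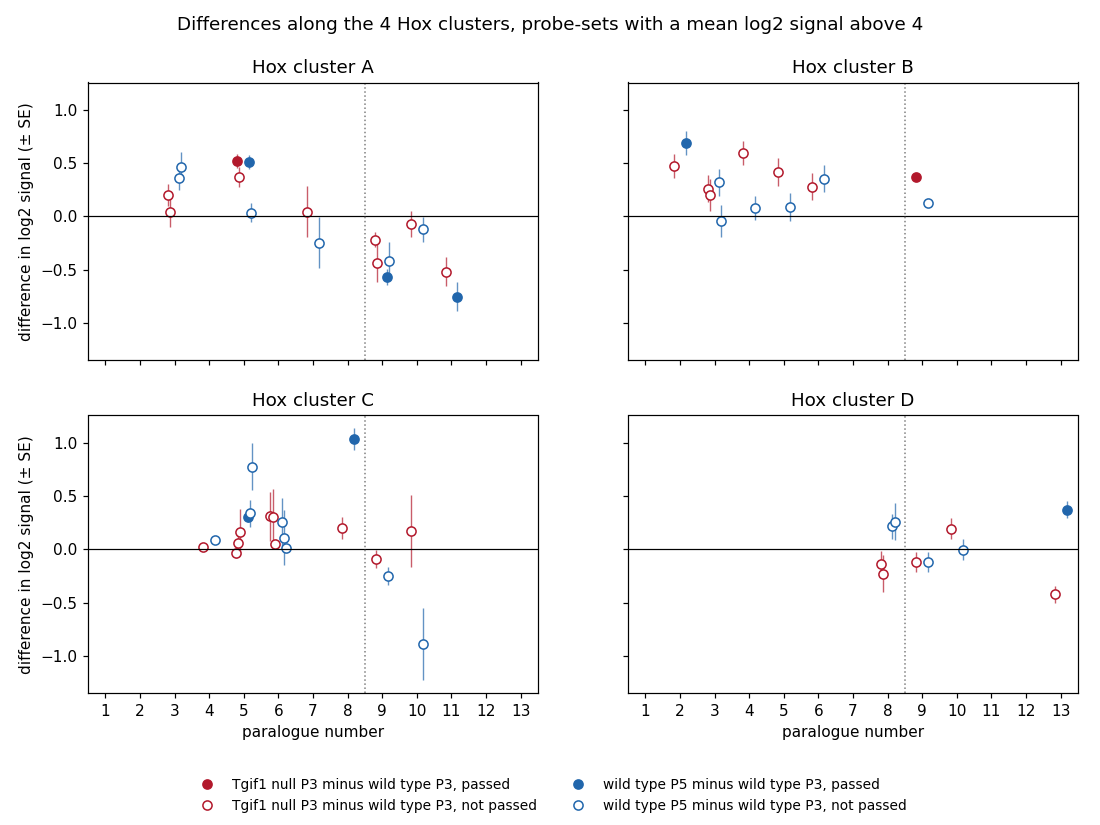
Difference in log2 signal from wild type P3 (± SE, vertical axis) against paralogue number (horizontal axis) for the Hox probe-sets with a mean log2 signal above 4, in the null (red) and at P5 (blue), by cluster, filled where the test was passed. In clusters A and C the P5 values lie mostly above 0 left of the dotted line between paralogues 8 and 9 and below 0 right of it, while Hoxb9 and Hoxd13 are above 0 at P5.

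**Figure D5:**
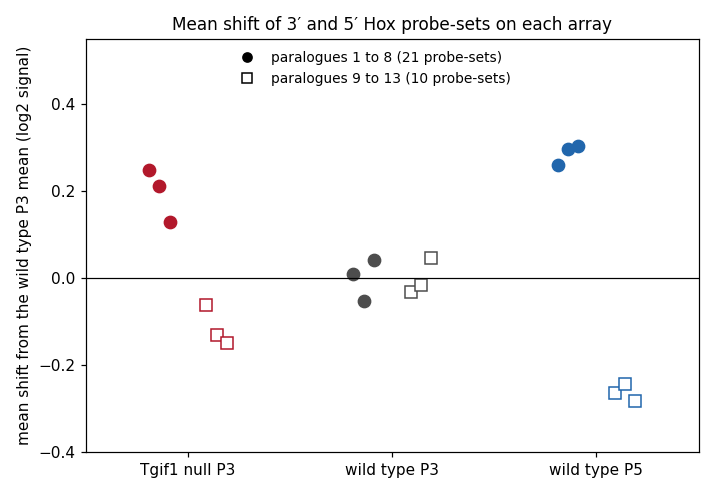
Mean shift in log2 signal from the wild type P3 mean (vertical axis) on each of the 9 arrays, over 21 probe-sets of paralogues 1 to 8 (filled circles) and 10 of paralogues 9 to 13 (open squares). On the P5 arrays the circles lie between 0.26 and 0.30 and the squares between -0.28 and -0.24.

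Across the 9 arrays the Hox probe-sets most like the brighter Hoxa5 one, by Pearson's r, were of Hoxb2 (0.86), Hoxb6 (0.82) and Hoxa3 (0.79). The least like it were of Hoxa11 (-0.85) and Hoxa9 (-0.77). The second Hoxa5 probe-set was at 0.50 and the second Hoxa3 probe-set above background at 0.44. The values thus belong to single probe-sets rather than to genes. These are descriptions over arrays of 3 groups, whose differences set most of the values.

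Hox proteins bind DNA with cofactors of the Pbx, Meis and Pknox families. The counts of this and the next lists stand beside 9.75% of probe-sets with a mean above 4 that rose and 10.4% that fell at P5, 2.09% and 1.6% in the null against P3, and 8.5% and 8.1% in the null against P5. Of 8 measured cofactors none passed between null and P3, and at P5 Meis1 fell by 0.57 ± 0.08 (SE, limma adjusted p = 0.0104) and none rose, with a median of -0.19. Meis1 had a mean of 7.58 ± 0.07 (SD, n = 3) at P3, 7.02 ± 0.17 at P5 and 7.46 ± 0.02 in the null. Against P5, Meis1 and Pbx2 were higher in the null, by 0.44 and 0.62.

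Of 16 measured genes that set up Hox expression in the embryo, 9 were near the lowest value on the arrays of each group, among them the caudal genes Cdx1, Cdx2 and Cdx4 and the signals Fgf8 and Wnt3a. None passed between null and P3. Egr2, which drives Hoxb2 in the hindbrain, rose by 0.85 ± 0.18 (SE) at P5 (limma adjusted p = 0.0387). Against P3 the null differed by -0.28 in Egr2 and by 0.47 in Hoxb2, neither of which passed. Egr2 and Rxra, a retinoid receptor, were lower in the null than at P5, by 1.13 and 0.41. A link of Egr2 to Hoxb2 in these cells was not tested.

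Polycomb proteins keep Hox genes silent outside their domains, and Trithorax proteins keep them active. Of 23 measured Polycomb genes none passed between null and P3. At P5, 4 fell and 1 rose, with a median of -0.01. Phc1 fell by 0.86 ± 0.06 (SE, limma adjusted p = 0.000683), Ezh2, the methyltransferase of the complex, fell by 0.76 ± 0.06 (limma adjusted p = 0.00102), Mtf2 fell by 0.53 and Rbbp4 fell by 0.40, while Scmh1 rose by 0.71. Of 13 Trithorax genes, 4 fell at P5 and none rose, with a median of -0.45: Dpy30 fell by 0.73, Wdr5 fell by 0.54, Rbbp5 fell by 0.54 and Ash2l fell by 0.24, all shared subunits of the H3K4 methyltransferase complexes. In the null Wdr5 and Ash2l fell by 0.36 and 0.27 (limma adjusted p = 0.0468 and 0.0454) and no other member passed. These calls, near the threshold, were not run through the alternatives. Of the members, 21 of 23 and all 13 were above background on every array, and of all probe-sets with a mean above 4, 10.4% fell at P5 and 1.6% in the null. Members of both groups, of opposite known action on Hox genes, fell at P5.

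Other transcription factors that mark position in limb, trunk wall and head fibroblasts were read beside the Hox genes. Of 27 measured, 13 were above background on all arrays and none passed between null and P3. At P5, Lhx9 and Tbx18 rose by 0.59 and 0.43 (limma adjusted p = 0.00557 and 0.0492) and Shox2 and Hand2, both limb genes, fell by 0.43 and 0.45 (limma adjusted p = 0.0135 and 0.0334), with a median of -0.04, where 20.2% of all probe-sets with a mean above 4 and 8.62% of all passed in either direction. Tbx4 and Pitx1, genes of the hind limb, were above background with means at P3 of 7.32 ± 0.14 and 5.60 ± 0.34 (SD, n = 3), and Tbx5, of the fore limb, was near background at 2.62 ± 0.09. Neither Tbx4 nor Pitx1 passed in any comparison. As signals of different probe-sets cannot be compared, these levels do not place the cells in the hind or the fore limb.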

How the data were processed

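The authors deposited 1 log2 signal per probe-set and array for 9 Affymetrix mouse whole-genome arrays, with RNA from 3 independent cultures per group. Per the labels and the study's methods the signals were made with GCRMA, which subtracts background modelled from probe sequence, normalizes by quantiles and summarizes each probe-set; limma is also named, with no version for either in the sources. Quantile normalization can hide a shift of all genes, and GCRMA holds dim probe-sets at a floor (2.23 here), where a decrease cannot be seen. Array medians ran from 2.48 to 2.50 and replicates correlated at 0.9961 to 0.9991 over all probe-sets. The number of arrays limits the precision, and detection calls and signal over background were not used here.

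No further normalization was applied to the deposited log2 signals. Probe-sets were named through GEO's platform annotation and RefSeq symbols (assembly GRCm38.p6): 34958 had 1 symbol, 932 several and 9211 none here. Group means were fitted to all 9 arrays in R 4.3.3 with limma 3.58.1 (6 residual and 0.345 prior degrees of freedom), with the moderated test of each comparison, Benjamini-Hochberg adjustment over 45101 probe-sets and a call at an adjusted p under 0.05. The smallest p of an exact permutation test of 3 against 3 is 0.1, so none was used. The script was tested on simulated data. Other lists use the brightest probe-set of each gene and are described by counts and medians.

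Arrays were given in full for Hox probe-sets that passed a test, for Hoxa5, for the lowest- and highest-numbered gene above background in each cluster, and for genes whose probe-sets disagreed, plus up to 4 genes of each other list; Hoxb5, Hoxb6, Hoxa4 and the cluster counts were chosen after their values were seen, as were non-passing members named as background. The members and lists were chosen with earlier results of these data known. Alternatives were filters on low signal, another normalization or centring, another prior, the study's thresholds (on limma's pair-wise p and on its F p), a replicate block, fits of 6 arrays, 1 value per gene, and each array left out. The counts of alternatives that lost a call leave out the study's thresholds, the filter on the mean signal and 1 value per gene. Calls of the other lists and of antisense probe-sets were not run through the alternatives. Drawing used Python 3.11.15 with matplotlib 3.10.9. A probe-set with several symbols was left out (3 for Hox genes), as were 5 antisense probe-sets.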

Additional observations from a re-analysis of the deposited data

How the results depend on the processing

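From P3 to P5, 7 Hox probe-sets passed as reported, 1 with limma's trended, robust prior, 1 with the thresholds of the study, 10 when only probe-sets above a log2 signal of 4 or of 6 on 3 arrays were fitted, 10 when only those with a mean above 4 were fitted, and between 4 and 9 with 1 array left out. Between null and P3, 3 passed as reported, 8 and 7 with the filters at 4 and 6, and 7 with the filter on the mean. None passed with that prior, with the 6 arrays of the 2 groups or with the study's thresholds. Between 1 and 3 passed with 1 array left out, the lowest without null replicate 2 or any P5 array. In the fit as reported, 12 of 48 had an unadjusted p under 0.05 (limma), with no such count over all probe-sets. Between null and P5, 7 passed as reported, 11 with the filter at 4, 10 with the filter on the mean, 2 with that prior, 1 with the study's thresholds, 4 when the probe-sets of each gene were averaged, and between 3 and 6 with 1 array left out. The study's thresholds gave the same Hox numbers with limma's F p and with its pair-wise p. Calls over all probe-sets fitted moved as well. From P3 to P5 they were 3889 as reported, 6035 and 5426 with the filters at 4 and 6, and 1297 with that prior. Between null and P3 they were 717 as reported, 1563 and 1474 with those filters, 59 with that prior and 123 with 6 arrays. Between null and P5 they were 3258 as reported, 5246 with the filter at 4 and 1071 with that prior. The pair-wise p and the filter on the mean were chosen after seeing the data. The filter at 4 kept 33 Hox probe-sets, of which the dimmer Hoxb4 was kept by its 3 null arrays alone and a Hoxc5 probe-set by its 3 P5 arrays alone, so they had to differ; the filter on the mean kept 31, that Hoxc5 probe-set among them. The filters adjust over fewer probe-sets, and limma's prior was also estimated anew from the probe-sets kept. Leaving out arrays, or fitting 6, leaves fewer arrays, again with a new prior. The part of each in these changes was not tested. With the replicate number as a block, the numbers were 0 for null against P3, 5 for P5 against P3 and 4 for null against P5. Of all probe-sets, 141, 2247 and 1763 passed in that fit. Same-numbered arrays deviated from their group means with correlations from -0.49 to 0.40. For arrays of different number these ran from -0.61 to 0.63. With 3 arrays per group such correlations cannot show whether cultures of the same number were paired.

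Of 270 refits of the 17 differences that passed, 187 were still past the threshold and 83 not. All kept their direction, which most refits could not turn. Many refits leave the group means as they were, and the arrays of the compared groups did not overlap. Hoxc8 at P5 and both Hoxc8 and Hoxd13 between null and P5 passed in every refit, with adjusted p up to 0.0212, 0.0355 and 0.0324. Of the refits, only that prior lost Hoxa5 and Hoxa9 at P5 (limma adjusted p = 0.0553 and 0.0556). Neither met the study's thresholds, which are not counted among the refits. Between null and P3, Hoxa5 was lost in 10 of 16 refits (limma adjusted p up to 0.208), the dimmer Hoxb4 probe-set in 11 of 15 (up to 0.277) and Hoxb9 in 3 of 16 (up to 0.391). With each array left out in turn, the probe-sets of paralogues 1 to 8 that were higher at P5 numbered 17 to 20. Those of paralogues 9 to 13 that were lower numbered 7 to 8. In the null the numbers were 16 to 18 and 7. The split was drawn from these same arrays, so these counts do not test it. Centring moved the median of all probe-sets by at most 0.0123.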

Other observations

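The antisense and shared probe-sets of the Hox clusters were kept apart from the members. Hoxb5os, a transcript opposite Hoxb5 in cluster B, read 7.86, 8.19 and 8.13 in the null, 7.18, 6.66 and 6.96 at P3 and 8.02, 8.13 and 7.86 at P5. Its P3 arrays lay below all others. It rose by 1.13 ± 0.16 (SE) in the null (limma adjusted p = 0.0281) and by 1.07 ± 0.16 at P5 (limma adjusted p = 0.0103), 2 differences that share the P3 arrays, and null and P5 differed by 0.06 (95% interval from -0.32 to 0.43). These differences were larger than those of any Hoxb probe-set in the same comparisons, which ran up to 0.60 in the null and 0.69 at P5. Hoxb5 itself differed from P3 by 0.42 in the null and 0.09 at P5, without passing. The 2 calls of Hoxb5os were not run through the alternatives.

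Hoxa11os, opposite Hoxa11, read 6.63, 6.61 and 6.47 in the null, from 6.71 to 7.12 at P3 and 6.64, 6.64 and 6.59 at P5. Its P3 arrays were the high ones, as for Hoxa11, by differences of -0.37 in the null and -0.32 at P5 that did not pass (limma adjusted p = 0.22 and 0.151). A second Hoxa11os probe-set and both of Hoxd3os1 were near the lowest value on all arrays. A probe-set shared by Hoxb8 and Hoxb7 read 7.80, 7.55 and 7.40 in the null, 7.30, 7.02 and 7.56 at P3 and 7.65, 7.57 and 7.84 at P5, with differences of 0.29 and 0.40 that did not pass.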
